A study of Homo sapiens with 4 samples.

Results

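The genes described here are the receptors through which extracellular HMGB1 is sensed and the proteins that carry the signal of Toll-like receptors into the cell. They were taken by symbol: the receptors *AGER*, *TLR1*, *TLR2*, *TLR3*, *TLR4* and *TLR6*, the adaptor *MYD88*, the kinases *IRAK1* and *IRAK2*, and the ubiquitin ligase *TRAF6*. All 10 were found on primary chromosomes among the 63677 genes counted in each library. The list was made with earlier results of these data known.

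The study knocked down *HMGB1* in IMR90, a line of human fetal lung fibroblasts, at passage 5. Cells were transfected for 72 h with non-targeting control (NTC) siRNA or with siRNA against *HMGB1* mRNA, and poly(A) RNA was sequenced. Each of 2 isolates of the line, I90-10 (replicate 1) and I90-79 (replicate 2), gave 1 control and 1 knockdown library, 4 in all. All 4 libraries carried a transfection, and no untransfected or stimulated cells are analysed here.

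HMGB1 is a chromatin protein that acts as an alarm signal once it leaves the cell. Outside the cell it can bind RAGE, the product of *AGER*, and can engage Toll-like receptors, of which TLR2 and TLR4 are the most studied in this respect, while TLR3 senses double-stranded RNA in endosomes. Most Toll-like receptors recruit MYD88, which assembles IRAK kinases and TRAF6 and ends in activation of NF-kB, whereas TLR3 signals through TICAM1 instead. TLR1 and TLR6 do not work alone but pair with TLR2.

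The libraries held 29861687 to 35317010 counted reads. Counts were scaled to the total of each library, as CPM. *HMGB1* itself stood at 178 and 247 CPM in controls and at 15.4 and 18.9 CPM on knockdown, a log2-fold change of −3.59 (adjusted p = 0.00751). The 8 fibroblast markers summed to 18746 to 33524 CPM, most of it collagen; with the isolate as a term in the fit, *THY1* (−0.99, adjusted p = 0.000311) and *PDGFRB* (−0.68, adjusted p = 0.00265) were called lower on knockdown and *LUM* (0.83, adjusted p = 0.00294) higher, and the other 5 were not called. Of 10 leukocyte and macrophage markers, 8 had 3 reads or fewer in every library, among them *PTPRC*, *ITGAM*, *CD163* and *CD3E*, and the whole list summed to 0.167 to 0.453 CPM. Of 9 lung epithelium markers 7 were as low, and that list summed to 1.14 to 1.34 CPM. Of the endothelial markers, *CDH5* had 0 reads in every library, *TEK* stood at 127 to 154 CPM, and *VWF*, with 40 and 34 reads in controls and 120 and 81 on knockdown, was called higher with the isolate term (1.55, standard error, SE, 0.268, adjusted p = 0.00357). The part of these marker changes in the results that follow was not tested. In bulk RNA, a change in the share of cells and a change in RNA per cell cannot be told apart.

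Level per length, as RPKM (CPM divided by the exonic length in kilobases), set the order of the 10 genes. Averaged over the 4 libraries, *IRAK1* was highest at 52.2 RPKM, followed by *MYD88* at 15.9, *IRAK2* at 15.2, *TRAF6* at 3.50, *TLR6* at 2.04, *AGER* (0.564 to 1.81 over the libraries), *TLR3* at 0.360, *TLR1* at 0.0906, *TLR2* at 0.0651 and *TLR4* at 0.00135 RPKM. All 4 signaling genes thus lay above all 6 receptors. The ranges over libraries overlapped between *MYD88* and *IRAK2* and between *TLR1* and *TLR2*, so the order within these pairs is not settled. Those of *TLR6* and *AGER* overlapped as well, but *TLR6* was the higher of these in every library. The other neighbors did not overlap, but *TRAF6* (lowest 3.04 RPKM) and *TLR6* (highest 2.93) came close, as did *AGER* (lowest 0.564) and *TLR3* (highest 0.553).

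**Figure D1:**
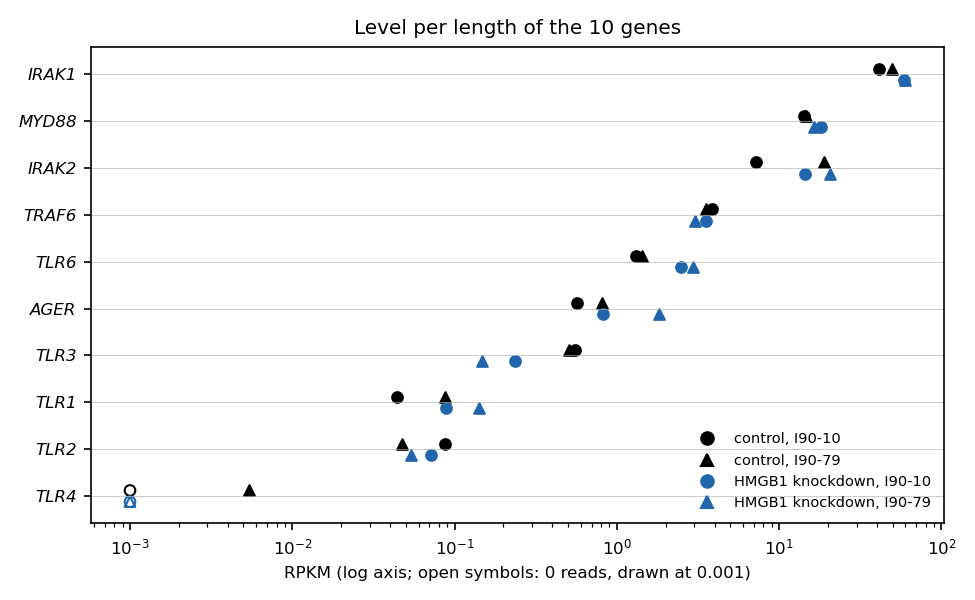
RPKM (log axis) of the 10 genes in each library; color gives the group, symbol shape the isolate, and open symbols mark 0 reads. The signaling genes lie at the top, *TLR6*, *AGER* and *TLR3* in the middle, and *TLR4* has a single read in 1 of the 4 libraries.

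A gene was taken to be at the count floor where a library held 3 reads or fewer, which is 0.0849 to 0.100 CPM at these depths. *TLR4* (chr9:120466610-120479149 in hg19, as all gene positions here, plus strand), the receptor for bacterial lipopolysaccharide, was the one member at the floor, with 0 and 1 reads in controls and 0 and 0 on knockdown. No fold change is given for it, and a change below the floor was not detectable at this depth. *TLR2* (chr4:154622652-154626851, plus strand), which recognizes bacterial lipopeptides, had 11 and 7 reads in the controls and 9 and 7 in the knockdown libraries (0.368, 0.198, 0.301 and 0.225 CPM). It was above the floor in every library, its groups overlapped, and it was too low to pass the expression filter. The remaining 8 genes were tested.

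The other Toll-like receptors were nearly all at or near the floor. *TLR7*, *TLR8* and *TLR10* had 0 reads in all 4 libraries, and *TLR9* had 1 read in a single control library. *TLR5*, the flagellin receptor, had 18 and 7 reads in the controls and 13 and 2 in the knockdown libraries, which gave −0.62 on the log2 scale (SE 0.98, adjusted p = 0.721). Of the 10 human Toll-like receptor genes, 5 were therefore at the floor in every library. Picked after its values were seen, the TLR4 co-receptor gene *LY96* was counted at 305 and 401 reads in the controls and at 398 and 483 in the knockdown libraries, although *TLR4* itself was at the floor; *CD14*, which hands lipopolysaccharide to that receptor pair, had 1, 3, 5 and 3 reads.

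*TLR6* (chr4:38825336-38858438, minus strand) was the most abundant receptor in every library. It was counted at 7.97 and 8.64 CPM in the controls and at 15.1 and 17.7 CPM in the knockdown libraries, from 238, 305, 450 and 550 reads. Both knockdown libraries lay above both controls, and within each isolate knockdown exceeded control on the log2 scale, by 0.94 in I90-10 and 1.09 in I90-79. The log2-fold change was 1.02 (SE 0.161, adjusted p = 0.0285 by edgeR's quasi-likelihood test), short of the study's threshold for a call, an adjusted p under 0.01 with a change over 0.6. That threshold called 0.201% of the 15398 genes tested. With the isolate as a term in the fit, that is, comparing knockdown with control within each isolate, *TLR6* was called higher (log2-fold change 1.02, SE 0.141, adjusted p = 0.00129). In that fit 6.68% of all genes tested were called higher. After RUVs, which removes a factor of unwanted variation, DESeq2 gave 0.97 for *TLR6* (adjusted p = 0.0018), with 10.3% of all genes called in either direction.

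*TLR3* (chr4:186990306-187009223, plus strand) went the other way. It stood at 3.72 and 3.40 CPM in the controls and at 1.57 and 0.997 CPM in the knockdown libraries, from 111, 120, 47 and 31 reads. Both knockdown libraries lay below both controls, by −1.22 in I90-10 and −1.71 in I90-79 on the log2 scale. The log2-fold change was −1.42 (SE 0.337, adjusted p = 0.0645) without the isolate term and −1.45 (SE 0.272, adjusted p = 0.00526) with it, so that *TLR3* was called lower only in the latter of these fits. With the isolate term 7.84% of all genes tested were called lower. After RUVs, DESeq2 gave −1.24 for *TLR3* (adjusted p = 0.085), which is not a call.

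The relative levels of *TLR6* and *TLR3*, put side by side after both had been seen, restate these values. An exact permutation test of their log2 ratio gave p = 0.333. That is the smallest p that 2 libraries against 2 allow, so the test cannot decide. *TLR6* RPKM exceeded *TLR3* RPKM by 2.39 and 2.83 times in the controls and by 10.7 and 19.8 times in the knockdown libraries. *TLR3* made up 21.5% and 17.5% of the summed RPKM of the 6 receptors in the controls, and 6.30% and 2.92% in the knockdown libraries.

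*TLR1* (chr4:38792298-38858438, minus strand) is the neighbor and closest relative of *TLR6*. It had 6 and 14 reads in the controls and 12 and 20 in the knockdown libraries (0.201, 0.396, 0.402 and 0.643 CPM). The groups nearly met, and I90-79 lay above I90-10 in both. The difference, 0.83 on the log2 scale (SE 0.535, adjusted p = 0.364) did not pass the test with or without the isolate term (adjusted p = 0.25 with it). The pair arose by duplication, and reads from either can be hard to place. Of the 50-base pieces of *TLR1* transcripts 5.33% also occurred in transcripts of *TLR6* and in those of no other gene. The longest stretch that both share is 218 coding bases, chr4:38798857-38799074 in *TLR1* and chr4:38829484-38829701 in *TLR6* (hg19, minus strand). It is shown since a read inside it cannot be assigned to either gene:
TLR1 and TLR6: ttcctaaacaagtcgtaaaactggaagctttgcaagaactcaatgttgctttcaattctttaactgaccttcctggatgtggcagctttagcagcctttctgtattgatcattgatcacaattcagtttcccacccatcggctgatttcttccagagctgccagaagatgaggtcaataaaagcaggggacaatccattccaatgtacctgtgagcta
As *TLR1* had 20 reads at most and *TLR6* at least 238, and unique reads were counted, the level of *TLR1* is the less certain.

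*AGER* (chr6:32148745-32152101, minus strand), which encodes RAGE, the receptor for HMGB1 and S100 proteins, was counted at 1.17 and 1.67 CPM in the controls and at 1.71 and 3.76 CPM in the knockdown libraries, from 35, 59, 51 and 117 reads. The I90-79 knockdown library was the high one, and the I90-10 knockdown library lay barely above the I90-79 control. The log2-fold change was 0.98 (SE 0.445, adjusted p = 0.222) and became 0.94 (SE 0.295, adjusted p = 0.0433) with the isolate term, which is not a call. Within each isolate knockdown exceeded control on the log2 scale, by 0.57 in I90-10 and 1.23 in I90-79. Without the I90-79 knockdown library the log2-fold change was 0.34. That fit holds no isolate term and compares a knockdown of I90-10 with controls of both isolates, so the isolate difference enters it. Exons of *RNF5* on the opposite strand cover 29.9% of the exonic bases of *AGER*, and whether strand was used in counting is not given in the sources used here. *RNF5* stood at 33.7 and 36.8 CPM in the controls and at 34.2 and 34.9 CPM in the knockdown libraries, a level well above that of *AGER*; its part in the *AGER* counts was not tested.

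**Figure D2:**
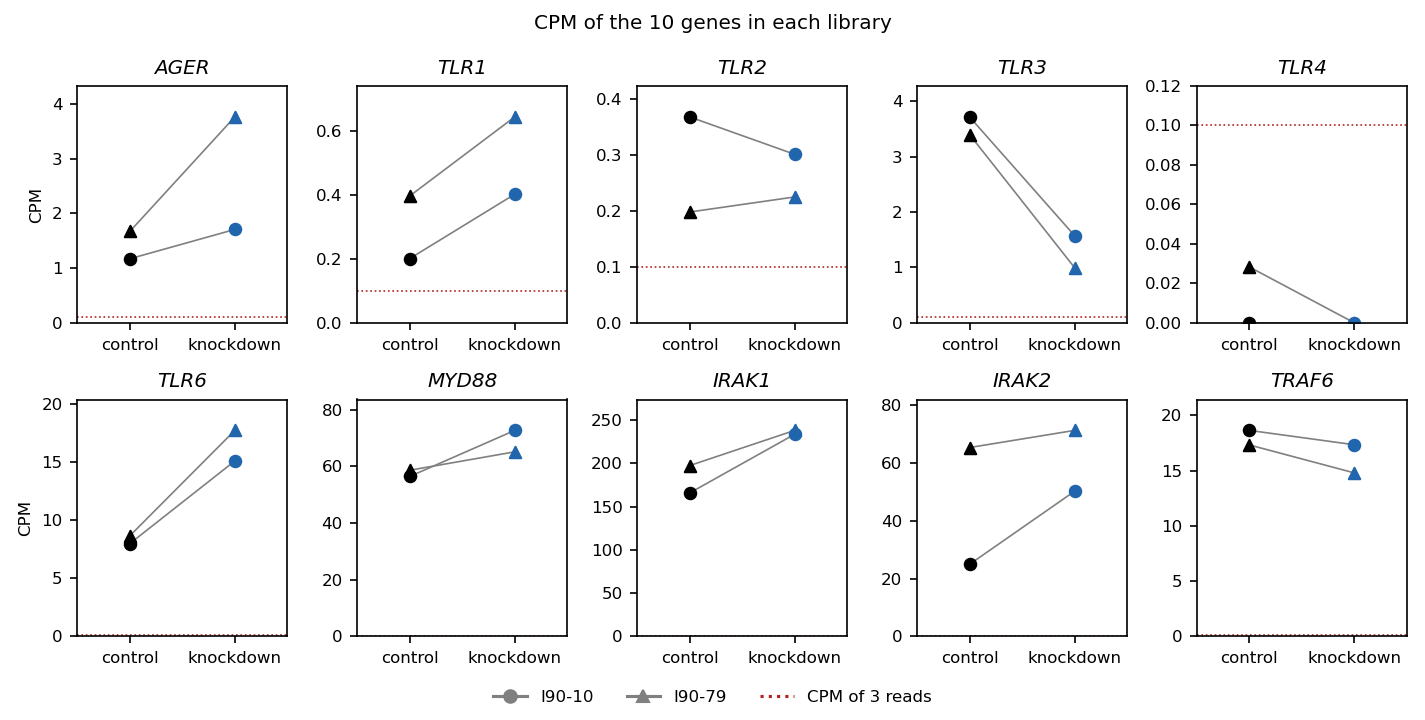
CPM of each of the 10 genes in control and knockdown libraries, from 0 on each axis; lines join the libraries of an isolate and the dotted line marks the CPM of 3 reads. *TLR6* is higher and *TLR3* lower in the knockdown library of both isolates, *TLR2* moves in opposite directions, and *IRAK2* is lowest in the I90-10 control.

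The 4 signaling genes were above the floor in every library, and none was called in either fit. *MYD88* (chr3:38179969-38184513, plus strand), the adaptor of most Toll-like receptors, was counted at 56.4 and 58.6 CPM in the controls and at 72.7 and 65.1 CPM in the knockdown libraries. The groups did not overlap, but the log2-fold change of 0.30 (SE 0.123, adjusted p = 0.187) did not pass the test (adjusted p = 0.0565 with the isolate term). *IRAK1* (chrX:153275951-153285431, minus strand) encodes a kinase that MYD88 complexes activate. It stood at 166 and 197 CPM in the controls and at 234 and 238 CPM in the knockdown libraries. These groups did not overlap either, and the log2-fold change of 0.42 (SE 0.121, adjusted p = 0.0971; 0.0129 with the isolate term) was under the threshold of 0.6 in both fits.

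*IRAK2* (chr3:10206549-10285427, plus strand), a related kinase that sustains signaling, spread widely within the control group. It was counted at 24.9 and 65.4 CPM in the controls and at 50.2 and 71.3 CPM in the knockdown libraries. The I90-10 control was the low library, and the groups overlapped. Knockdown exceeded control by 1.03 on the log2 scale in I90-10 and by 0.18 in I90-79. The log2-fold change was 0.48 (SE 0.429, adjusted p = 0.51) and 0.59 with the isolate term (adjusted p = 0.0392). Without the I90-10 control library it was −0.029, in a fit without the isolate term, so that the isolate difference enters that value. *TRAF6* (chr11:36508577-36531822, minus strand), the ligase whose ubiquitin chains activate the kinase TAK1, stood at 18.6 and 17.3 CPM in the controls and at 17.3 and 14.8 CPM in the knockdown libraries, which amounts to −0.12 on the log2 scale (SE 0.171, adjusted p = 0.68; 0.473 with the isolate term).

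Counted over the 8 genes tested, 0 were called on knockdown without the isolate term (0.201% of all genes), and 3 had an unadjusted p under 0.05 (28.3% of all genes). With the isolate term 1 was called higher (*TLR6*) and 1 lower (*TLR3*), against 6.68% and 7.84% of all genes. The median log2-fold change was 0.45, against −0.01 over all genes tested. Control and knockdown libraries did not overlap for 6 of the 8, against 59.9% of all genes tested. Knockdown and control differed in the same direction in both isolates for 8 of 8, against 78.3% of all genes.

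**Figure D3:**
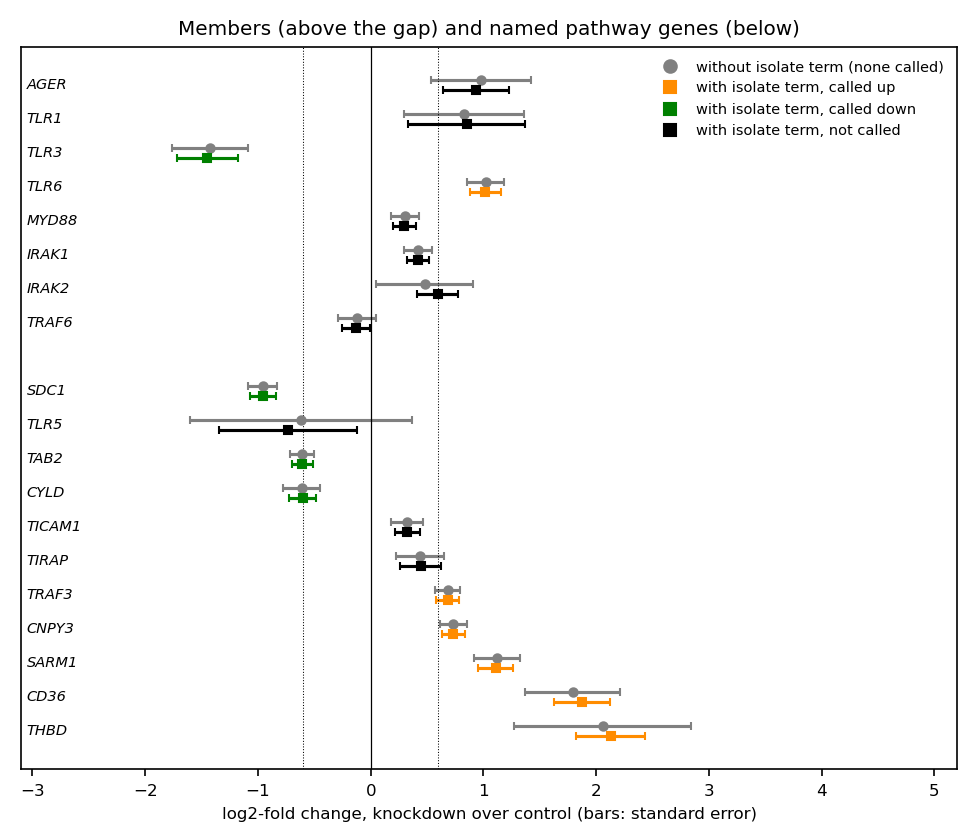
log2-fold change (bars, standard error) of the 8 members tested and of named pathway genes, without the isolate term (circles) and with it (squares; orange called higher, green called lower). Estimates nearly coincide between the fits, and the error bars of *AGER*, *TLR3*, *IRAK2*, *CD36* and *THBD* are shorter with the isolate term.

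Variation between the isolates was then examined in the fit that holds the group. None of the 8 members passed the threshold between I90-79 and I90-10, where 1.67% of all genes tested did. At an adjusted p of 0.0311, *IRAK2* came nearest, 0.87 higher in I90-79 (SE 0.183), more in the control libraries (1.30) than in the knockdown libraries (0.45). DESeq2 called this difference. *AGER* was 0.79 higher in I90-79 (SE 0.296, adjusted p = 0.165). *TLR6* differed by 0.11 (SE 0.14, adjusted p = 0.713). *IRAK3*, an inhibitor of the IRAK kinases that was picked after its values were seen, was called 0.93 higher in I90-79 (adjusted p = 0.00947), at 10.2 and 22.9 CPM in the controls and 12.1 and 21.5 CPM in the knockdown libraries of I90-10 and I90-79.

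A wider list of 58 pathway genes placed these results among their partners. Of them 37 were tested, 0 were called on knockdown without the isolate term, against 0.201% of all genes tested, and 15 (40.5%) had an unadjusted p under 0.05, against 28.3% of all genes. With the isolate term 5 were called higher and 3 lower, where 6.68% and 7.84% of all genes tested were, so that the share called lower was near that of all genes. The median log2-fold change of the list was 0.11.

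Among other surface proteins that bind HMGB1, *THBD*, which encodes thrombomodulin, a membrane protein that sequesters HMGB1, stood at 0.301 and 1.27 CPM in the controls and at 1.57 and 4.92 CPM in the knockdown libraries, and was called higher with the isolate term (2.13, SE 0.307, adjusted p = 0.00153). After RUVs, DESeq2 gave 1.26 (adjusted p = 0.114), which is not a call, and the log2-fold change ran from 1.06 to 3.40 over the alternatives. Between the isolates its log2 difference was 1.71, higher in I90-79, without a call (adjusted p = 0.0179). *SDC1*, the heparan sulfate proteoglycan syndecan, fell from 38.5 and 46.6 CPM to 21.3 and 21.2 CPM (−0.96, SE 0.114, adjusted p = 0.000629 with the isolate term).

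Of 5 co-receptors and chaperones tested, 2 were called higher with the isolate term, as were 6.68% of all genes. *CD36*, a scavenger receptor that can serve with TLR6, went from 2.68 and 6.97 CPM to 14.9 and 17.5 CPM (1.88 with the isolate term, SE 0.25, adjusted p = 0.00108). *CNPY3*, a chaperone that several but not all Toll-like receptors need, went from 30.9 and 37.1 CPM to 53.9 and 55.7 CPM (0.73, adjusted p = 0.00145). *UNC93B1*, picked after its values were seen, escorts TLR3 to endosomes and stood at 12.9 and 13.9 CPM in the controls and at 8.10 and 9.43 CPM in the knockdown libraries, without a call (−0.57, SE 0.144, adjusted p = 0.0188 with the isolate term).

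Of the other adaptors with a TIR domain, *SARM1*, which inhibits TICAM1 signaling, was called higher with the isolate term, from 6.26 and 6.14 CPM to 14.5 and 11.7 CPM (1.11, SE 0.157, adjusted p = 0.00142). Other genes overlap 61.4% of its exonic bases. *TICAM1*, the adaptor of TLR3, stood at 23.1 and 21.3 CPM in the controls and at 27.9 and 26.3 CPM in the knockdown libraries (0.33, adjusted p = 0.0532 with the isolate term), and *TIRAP*, which bridges MYD88 to TLR2 and TLR4, at 4.52 and 5.95 against 6.80 and 6.98 CPM (0.44, adjusted p = 0.102). Neither was called. *TICAM2* was at the floor with 2, 2, 2 and 0 reads, but 94.8% of its exonic bases are shared with other genes, so its level is uncertain.

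Below the adaptors, *TRAF3*, a ubiquitin ligase of the TICAM1 arm, was called higher with the isolate term, from 55.8 and 61.5 CPM to 93.7 and 89.5 CPM (0.68, adjusted p = 0.00165). *TAB2*, which docks TAK1 on ubiquitin chains, was called lower, from 119 CPM in both controls to 72.9 and 78.9 CPM (−0.61, adjusted p = 0.00239). *CYLD*, a deubiquitinase that removes such chains, was called lower as well, from 58.6 and 47.7 CPM to 33.3 and 34.5 CPM (−0.60, adjusted p = 0.00699), just past the threshold. After RUVs, DESeq2 called neither *TAB2* (−0.59, adjusted p = 0.00133) nor *CYLD* (−0.48, adjusted p = 0.0449), while it did call *SDC1*, *CD36*, *CNPY3*, *SARM1* and *TRAF3*. *MAP3K7*, which encodes TAK1 and was picked after its values were seen, had −0.56 (adjusted p = 0.00447), just short of it. The S100 genes listed, some of whose products bind RAGE, were picked after their values were seen: *S100A6* stood at 549 to 686 CPM, *S100A11* at 459 to 602 CPM and *S100A4* at 1.06 to 2.95 CPM, *S100P* was at the floor, and *S100A8*, *S100A9*, *S100A12* and *S100B* had 0 reads in all 4 libraries.

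Genes with the 6-base word GCAGTT in their 3′ UTR were lower on knockdown across all genes of these data, a relation known from earlier results of the same libraries, so its copies were counted in the canonical transcript of each gene (GENCODE, hg19 coordinates). Over all genes the median log2-fold change was 0.07 for the 7882 genes without the word, −0.10 for the 2714 with 1 copy, −0.22 for the 1043 with 2 copies and −0.32 for the 720 with 3 or more, while the median length of the 3′ UTR also rose, from 886 to 5444 bases; the part of length was not tested. *TLR3*, the member called lower with the isolate term, holds 0 copies in 3200 bases, and *TLR6*, *AGER* and *IRAK1* hold 0 copies as well. Of the 4 tested members with the word, *TLR1* (1 copy), *MYD88* (1) and *IRAK2* (2) had log2-fold changes above 0 and *TRAF6* (5) one below 0; 3 of the 5 copies in *TRAF6* lie beyond the end of the gene as counted. Of the 8 pathway genes called with the isolate term, 4 hold it: *TAB2* (3 copies) and *CYLD* (2), which were lower, and *TRAF3* (2) and *SARM1* (3), which were higher, although 2 of the 3 copies in *SARM1* lie beyond the gene as counted. The sites are shown for the member genes *MYD88* and *IRAK2*, which were not lower, and for *TAB2*, which was, with the word in capitals and hg19 positions:
MYD88, chr3:38183343-38183372 (plus strand): gcaggtggggaaGCAGTTtggcccagccca
IRAK2, chr3:10284276-10284305 (plus strand): cccccgccactgGCAGTTctgcaatgccat
IRAK2, chr3:10284506-10284535 (plus strand): ttgtgtctcagtGCAGTTcttgactcacct
TAB2, chr6:149731024-149731053 (plus strand): ataatgtcatgaGCAGTTgaaattcatcac
TAB2, chr6:149731952-149731981 (plus strand): gaacttgcacaaGCAGTTgttattgggaaa
TAB2, chr6:149732577-149732606 (plus strand): tcagcttcatctGCAGTTctatgtgaagat
Of the tested members, 3 of the 4 with the word and 3 of the 4 without it had a log2-fold change above 0. Over all genes 36.2% hold the word. Of those, 62.4% were lower on knockdown, against 42.9% of the genes without it. Groups of 4 members are too small to be set against these shares.

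**Figure D4:**
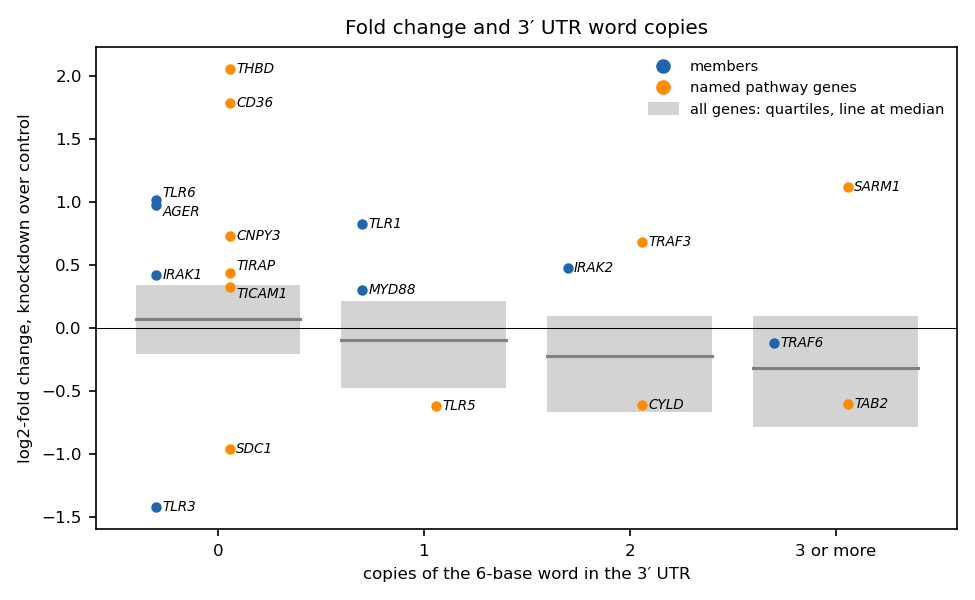
log2-fold change, without the isolate term, against copies of the word in the 3′ UTR, for members (blue) and named pathway genes (orange); grey boxes span the quartiles of all genes and their line is the median. *TLR3* lies far below the box for 0 copies, while *TLR1*, *MYD88* and *IRAK2* lie above the boxes for 1 and 2 copies.

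Promoters of 9 of the 10 genes were matched in RefSeq (GRCh38.p14; 300 bases around the start). The core of the interferon-stimulated response element, GAAA and again GAAA with any 2 bases between them, searched on both strands, was found in those of *TLR3* and *MYD88* and in 3.57% of 35116 promoters. With the isolate term *TLR3* was called lower, and *MYD88* was not called with or without it. Both windows are shown with the match in capitals:
TLR3, chr4:186069137-186069176 (plus strand, match on the other strand): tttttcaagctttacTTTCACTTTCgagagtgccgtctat
MYD88, chr3:38138585-38138624 (plus strand): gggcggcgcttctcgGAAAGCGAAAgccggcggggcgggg
A loose form of the NF-kB site, GGG and CC with any 5 bases between them, was searched on both strands. It was found at 8 positions in the promoter of *IRAK1*, 6 in that of *TLR2* and 3 in that of *TRAF6*. Those of *MYD88* and *IRAK2* held 2 each and that of *AGER* held 1, while those of *TLR3*, *TLR4* and *TLR6* held none. The site occurs in 58.7% of all promoters. These matches describe letters in a window and say nothing about binding.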

How the data were processed

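Poly(A) RNA from 2 control and 2 *HMGB1* knockdown IMR90 cultures was sequenced paired-end on TruSeq libraries. The authors mapped reads to hg19 with STAR and counted unique reads per gene with featureCounts, and the deposited values are raw counts for 63677 genes, not normalized. Tool versions and the strand setting are not given in the sources used here. The 5904 genes off the primary chromosomes held 0 reads.

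Counts were tested with edgeR 4.0.16 in R 4.3.3 (filterByExpr, TMM scaling, quasi-likelihood test, Benjamini-Hochberg adjustment over the 15398 genes that passed), with calls at an adjusted p under 0.01 and a log2-fold change over 0.6, as in the study. The study used RUVs and then DESeq2. As an alternative, an RUVs step rewritten for this report, with 1 factor, was followed by DESeq2 (1.42.0). The number of factors in the study is not given in the sources used here, so its own fit was not repeated exactly. CPM was scaled to library totals, and RPKM also to the exonic length in the files. A log2-fold change within an isolate compares 1 library with 1, without a test. Each isolate gave 1 library per group, without a repeat, so p-values rest on the differences between these libraries only. The labels give replicates the same isolate in both groups, and the isolates' differences correlated over genes (r = 0.62). Isolate was therefore the replicate block in the fit with the isolate term. The main fit left this pairing out and called 0.201% of all genes tested, so its 0 called members say little about the members. The fits were also run on simulated counts whose set changes were larger than those of the members tested. That run does not bear on changes as small as those of the members. With 1 residual degree of freedom per gene in the fit with the isolate term, errors rest on sharing across genes.

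The members and lists, and the word searched in 3′ UTRs, were chosen with earlier results of these data known. Named were all 10 members, *HMGB1*, the pathway genes called in either edgeR fit, and the other Toll-like receptors and TIR adaptors; others are said to be picked. *CD24*, *IKBKG* and *IKBKE* of the pathway list and *PECAM1* of the marker lists could not be matched to a symbol and were not used here.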

Additional observations from a re-analysis of the deposited data

Results flagged for a closer look

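*TLR2* differed in sign between the 2 isolates: on the log2 scale knockdown differed from control by −0.26 in I90-10 and by 0.24 in I90-79. Control and knockdown held 11 and 9 reads in I90-10 and 7 and 7 in I90-79, so the 0.24 comes from library scaling alone. The difference between the isolates was not tested, each value compares 1 library with 1, and they rest on 7 to 11 reads per library.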

How the results depend on the processing

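Of 101 fold changes recomputed for the 8 tested members under 13 alternatives, 99 kept their direction. The exceptions were *IRAK2* without control replicate 1 (−0.029) and *TRAF6* without HMGB1 knockdown replicate 2 (0.017). Leaving out a library gave −0.029 to 1.28 for *IRAK2* and −0.27 to 0.017 for *TRAF6*. The fits that leave out a library hold no isolate term, so isolate differences enter their fold changes. Against 0 members called higher, 1 was called by DESeq2 alone, by RUVs with DESeq2, without a filter on low counts, with the replicate block, at an adjusted p under 0.05, and by DESeq2 with the replicate block, which was added after seeing the data. Against 0 called lower, 1 was called without the filter and with the replicate block. Of the pathway list, against 0 called higher, 4 were called by DESeq2, 4 by RUVs with DESeq2, 6 without the filter, 5 with the replicate block, 3 at an adjusted p under 0.05 and 5 by DESeq2 with the block; against 0 called lower, the counts were 2, 1, 2, 3, 2 and 2. Leaving out a library gave 0 to 1 called higher, the 1 without control replicate 2. Between isolates, against 0 members, 1 was called higher in I90-79 by DESeq2, without the filter and at an adjusted p under 0.05. The share of all genes tested that was called also depended on the fit. It was 0.201% without the block, 6.68% higher and 7.84% lower with it, and 10.3% in either direction after RUVs. Shares under the other alternatives are not given here, so these counts are not read as results about the members or the list. The replicate block changed no call of a member other than those of *TLR6* and *TLR3*. Over all alternatives the adjusted p ranged from 7.82e-05 to 0.143 for *TLR6*, from 0.000661 to 0.25 for *TLR3* and from 0.0431 to 0.754 for *AGER*; leaving out a library kept *TLR6* between 0.93 and 1.10 and *TLR3* between −1.82 and −1.10. With TMM scaling, 19 of 20 group means of the members moved by less than the spread of their replicates, and that of *IRAK1* in knockdown moved from 236 to 239 CPM. With 2 libraries a group and few reads, changes in *TLR1*, *TLR2* and *TLR4* were the least resolved. The causes of these differences were not tested.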
